A study of Mus musculus with 8 samples.

Results

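The VEGF and angiopoietin axis was followed here through 10 genes, chosen by name: the ligand genes Vegfa, Vegfb, Vegfc and Vegfd, the VEGF receptor genes Flt1, Kdr and Flt4, the angiopoietin genes Angpt1 and Angpt2, and Tek, which encodes the angiopoietin receptor. All 10 were found, each as 1 row, among 53921 named rows of the deposited count table. The cells were mouse induced cardiomyocytes, which are fibroblasts pushed towards a heart muscle identity, collected on day 5. All cells carried MGT, the usual short form for the reprogramming factors Mef2c, Gata4 and Tbx5, and received a lentivirus carrying a short hairpin RNA. The hairpin was shNT, taken as the control, in 2 RNA-seq libraries and shGrhl3, directed against the Grainyhead-like transcription factor gene Grhl3, in 2 others. The source label adds "Neo" to the cell type, and the labels give neither strain nor age. The H3K27ac CUT&Tag samples of the series were not analysed here. The table names the hairpin columns shGrhl1 and shGrhl2, which were read as replicates 1 and 2 of shGrhl3 because the labels name no other target. Read literally, those column names would mean hairpins against 2 other family members, Grhl1 and Grhl2. The labels do not tie the replicates to separate cultures, so each p-value reflects a spread between libraries that may be technical.

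VEGF ligands are secreted dimers that bind receptor tyrosine kinases, mainly on endothelial cells. VEGF-A binds the receptors encoded by Flt1 and Kdr, VEGF-B binds that of Flt1 alone, and VEGF-C and VEGF-D act mainly through the Flt4 receptor, the main one of lymphatic vessels. Angiopoietins bind the Tek receptor, also called Tie2: angiopoietin 1 activates it and keeps vessels quiet, whereas angiopoietin 2 often opposes that action. In the heart, muscle cells and fibroblasts are known sources of ligands, and endothelial cells carry most of the receptors.

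Total counts in named rows ran from 16102839 to 19822541 per library. Grhl3 itself (chromosome 4) stood at 1.62 and 0.882 CPM (counts scaled to a common TMM-adjusted library size) in shNT and at 0.549 and 1.02 CPM in shGrhl3, so the groups overlapped. Its log2 fold change was -0.69 (95% interval -1.85 to 0.46, adjusted p = 0.362 in edgeR's quasi-likelihood test), and a fall of the hairpin's target was not detected. Of the summed markers fixed for each cell type, 10 cardiomyocyte genes reached 4203 to 4927 CPM per library and 10 cardiac fibroblast genes 11039 to 12829 CPM. Most of the cardiomyocyte sum came from Tnnt2, at 3105 to 3311 CPM. The sums of different lists are not compared with each other. The cardiomyocyte gene Pln, a regulator of the calcium pump, stayed between 0.627 and 1.45 CPM. The small-subunit rRNA row Rn18s held 2.00% of the counts of shNT replicate 2 and 0.0959% to 0.573% of the other libraries.

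The start regions of the ligand genes are shown for 3 genes that did different things in these libraries: Vegfa rose, Vegfb did not pass the test and Vegfc fell. Each line holds the 250 bases before the gene's start on its own strand (RefSeq, GRCm38.p6, the assembly behind mm10), at chr17:46032378-46032627 (minus strand) for Vegfa, chr19:6987652-6987901 (minus strand) for Vegfb and chr8:54077282-54077531 (plus strand) for Vegfc. Capitals mark any match, on either strand, to the core of the hypoxia response element (ACGTG or GCGTG), the Grainyhead-like motif AACNGGTT, the GC box GGGCGG or the TATA box TATAAA. The last 2 motifs were added after the sequences were seen.
Vegfa: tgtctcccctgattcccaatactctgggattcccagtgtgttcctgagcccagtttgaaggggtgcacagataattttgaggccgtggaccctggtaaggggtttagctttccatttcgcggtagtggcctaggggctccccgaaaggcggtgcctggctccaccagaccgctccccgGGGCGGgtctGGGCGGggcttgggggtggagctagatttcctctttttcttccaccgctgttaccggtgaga
Vegfb: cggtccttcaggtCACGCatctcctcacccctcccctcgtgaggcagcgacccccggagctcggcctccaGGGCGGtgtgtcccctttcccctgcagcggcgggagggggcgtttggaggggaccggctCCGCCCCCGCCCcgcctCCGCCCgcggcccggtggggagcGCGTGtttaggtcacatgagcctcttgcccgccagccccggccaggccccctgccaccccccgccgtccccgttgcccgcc
Vegfc: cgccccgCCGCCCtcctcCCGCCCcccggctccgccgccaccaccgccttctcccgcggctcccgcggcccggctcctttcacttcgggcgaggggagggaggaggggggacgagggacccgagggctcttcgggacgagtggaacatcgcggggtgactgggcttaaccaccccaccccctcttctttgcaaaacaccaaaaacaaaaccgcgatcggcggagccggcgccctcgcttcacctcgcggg
The printed Vegfa and Vegfc windows each held 2 GC boxes and no hypoxia core, and the Vegfb window held 4 GC boxes and 2 hypoxia cores. Only these 250 bases were searched, so a hypoxia core further from a start would be missed. A match in letters does not show that a site is used. A second Vegfa entry, before a start inside the gene (chr17:46025164-46025413, minus strand, not printed), held 2 hypoxia cores and 1 GC box. That window lies wholly within the Vegfa gene, and whether its letters act as response elements was not tested. A GC box occurred in 32.7%, either hypoxia core in 38.6%, a TATA box in 12.4% and the Grainyhead-like motif in 1.79% of 32851 promoter windows of the same length. The Grainyhead-like letters were in none of the 9 windows of the 8 axis genes with an entry (Vegfa has 2), which says only that these letters are not there. Angpt1 and Angpt2 had no entry.

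Among 10 axis genes, 2 rose (Vegfa and Flt1), 5 fell (Vegfc, Vegfd, Angpt1, Angpt2 and Tek) and 3 did not pass the test (Vegfb, Kdr and Flt4). All 10 passed the filter on low counts. At an adjusted p under 0.05, 35.0% of all 15324 tested genes were called (17.1% higher and 17.9% lower), so a change by itself is common in this comparison. The CPM of the groups did not overlap for 8 of the 10 genes, against 66.5% of all genes tested: 2 lay higher in shGrhl3 (32.8% of all genes) and 6 lower (33.7%). The count of 7 called genes became 4 with DESeq2 (27.6% of all genes) and without shNT replicate 1 (24.3%), where Vegfa, Flt1, Vegfc and Angpt2 were called. It also became 4 without shGrhl3 replicate 1 (30.4%), where Tek took the place of Angpt2. Fits without a library pool the spread over genes and assume that a lone library varies like the others.

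**Figure D1:**
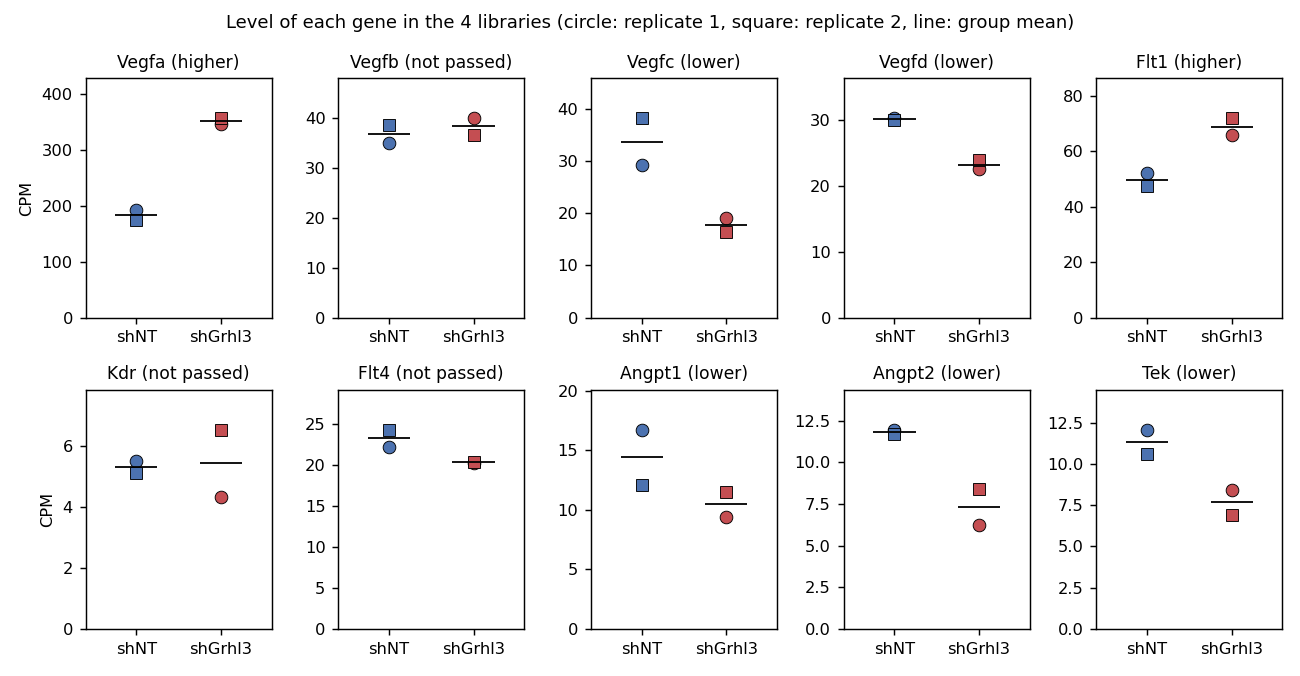
Level (CPM, linear axis from 0) of each axis gene in the 2 shNT libraries (blue) and the 2 shGrhl3 libraries (red); circles are replicate 1, squares replicate 2 and lines group means. Vegfa and Flt1 lie higher in both shGrhl3 libraries, Vegfb and Kdr overlap, and the other 6 genes lie lower, of which Flt4 did not pass the test.

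Vegfa, the main angiogenic ligand (chromosome 17, 46016993 to 46032377), almost doubled. It stood at 193 and 174 CPM in shNT and at 346 and 356 CPM in shGrhl3. Both shGrhl3 libraries lay far above both shNT libraries, and the gap was many times the distance within a group. The fold change was 1.92 (95% interval 1.70 to 2.16; log2 fold change 0.94, SE 0.08, adjusted p = 7.91e-09). Of all genes called higher, 20.8% had a larger change. The log2 fold change stayed between 0.87 and 1.01 over all settings tried.

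Vegfc, a ligand of lymphatic growth (chromosome 8, 54077532 to 54186454), moved the other way by about the same factor. Its level was 29.3 and 38.2 CPM in shNT and 19.2 and 16.4 CPM in shGrhl3. The shNT libraries differed from each other by more than the shGrhl3 libraries did, but the groups did not overlap. The log2 fold change was -0.92 (SE 0.14, adjusted p = 1.74e-05), a level 1.89-fold lower (95% interval 1.55 to 2.30). Of all genes called lower, 26.8% had a larger change.

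Vegfd, the other ligand of the Flt4 receptor (chromosome X, 164373522 to 164402650), fell less. It was at 30.2 and 29.9 CPM in shNT and 22.5 and 23.9 CPM in shGrhl3, with no overlap and little spread in either group. The log2 fold change was -0.38 (SE 0.12, adjusted p = 0.0164). The call was lost with DESeq2 (adjusted p = 0.0579), and without shNT replicate 1 (log2 fold change -0.37), shNT replicate 2 (-0.38) or shGrhl3 replicate 1 (-0.33), while the value hardly moved.

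Vegfb, whose product binds the Flt1 receptor only (chromosome 19, 6982472 to 6987651), stood at 35.1 and 38.6 CPM in shNT and at 40.0 and 36.7 CPM in shGrhl3. The libraries of the groups interleaved. Its log2 fold change was 0.06 (95% interval -0.17 to 0.29, adjusted p = 0.723), so levels more than 1.22-fold higher or 1.12-fold lower lie outside the interval.

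The makeup of the ligand pool changed with these shifts. Vegfa gave 67.1% (95% Wilson interval 65.8 to 68.3) and 61.9% (60.5 to 63.4) of the counts of the 4 VEGF ligand genes in the shNT libraries. In the shGrhl3 libraries it gave 80.9% (80.1 to 81.7) and 82.2% (81.4 to 83.0). These intervals cover counting error only, and shares of counts also depend on transcript length, so they are compared between libraries and not between genes. The share of Vegfc was 10.2% and 13.6% in shNT and 4.48% and 3.79% in shGrhl3. Vegfd went from 10.5% and 10.7% to 5.26% and 5.51%, and Vegfb, whose level did not pass the test, from 12.2% and 13.8% to 9.35% and 8.48%. The shares did not overlap between groups for any of the 4 genes and were not tested. Shares within a library are tied, so a larger Vegfa share leaves smaller shares for the other genes even where their levels hold. The summed level of the 4 genes was 287 and 280 CPM in shNT and 428 and 433 CPM in shGrhl3.

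**Figure D2:**
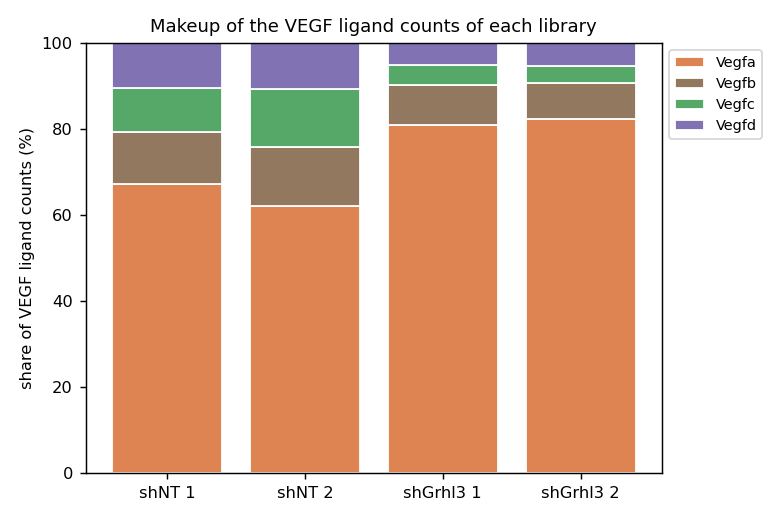
Share (%) of each VEGF ligand gene in the summed counts of Vegfa, Vegfb, Vegfc and Vegfd, 1 bar for each library. Vegfa takes 61.9% to 67.1% in the shNT libraries and 80.9% to 82.2% in the shGrhl3 libraries, and Vegfc and Vegfd take smaller shares there.

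Of the 3 VEGF receptor genes, only Flt1 passed the test. Flt1 encodes VEGF receptor 1, which binds VEGF-A tightly, signals weakly and also exists as a secreted form that traps ligand (chromosome 5, 147561604 to 147726438). It stood at 52.3 and 47.3 CPM in shNT and at 65.7 and 71.9 CPM in shGrhl3. Both shGrhl3 libraries lay above both shNT libraries. The fold change was 1.38 (95% interval 1.20 to 1.59; log2 fold change 0.47, SE 0.10, adjusted p = 0.000855), and the call held in all settings tried. Counts per gene cannot tell the membrane form from the secreted form.

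Kdr encodes VEGF receptor 2, the main signalling receptor of endothelial cells (chromosome 5, 75932827 to 75979072), and was the gene with the fewest counts of the 10, with 81 to 122 per library. Its level was 5.49 and 5.10 CPM in shNT and 4.34 and 6.53 CPM in shGrhl3. The shGrhl3 libraries lay on either side of the shNT libraries. The log2 fold change was 0.03 with a wide interval (-0.48 to 0.55, adjusted p = 0.937). Levels up to about 1.40-fold lower or 1.46-fold higher lie within that interval. The sign of the Kdr fold change turned without shNT replicate 2 (-0.02) and without shGrhl3 replicate 2 (-0.27).

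Flt4, the receptor gene for VEGF-C and VEGF-D (chromosome 11, 49609679 to 49652739), stood at 22.3 and 24.4 CPM in shNT and at 20.3 and 20.4 CPM in shGrhl3. The shGrhl3 libraries were slightly lower and did not overlap with shNT. By the test this was no call, at a log2 fold change of -0.19 (95% interval -0.45 to 0.07, adjusted p = 0.254).

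All 3 axis genes of the angiopoietin branch fell. Angpt4, a further angiopoietin gene from the partner list given later, had a log2 fold change of 0.66 and did not pass. It stood at 1.72 and 1.83 CPM in shNT and at 2.89 and 2.73 CPM in shGrhl3, without overlap. Angpt2, the context-dependent ligand (chromosome 8, 18690263 to 18741562), stood at 12.0 and 11.7 CPM in shNT and at 6.23 and 8.40 CPM in shGrhl3. The groups did not overlap. Angpt2 had a log2 fold change of -0.70 (SE 0.19, adjusted p = 0.00572), a level 1.62-fold lower (95% interval 1.24 to 2.12). The call was lost without shGrhl3 replicate 1, where the log2 fold change was -0.49. The Angpt2 locus lies in that of Mcph1, a chromosome condensation gene, whose counts ran beside it. Mcph1 stood at 12.2 and 12.4 CPM in shNT and at 7.83 and 10.2 CPM in shGrhl3 (log2 fold change -0.45, adjusted p = 0.0543). It passed with the stricter filter (adjusted p = 0.0495), with limma-voom (0.0477) and without shGrhl3 replicate 2 (-0.63). The strand setting of the authors' counting is unknown here, so reads of these overlapping genes may not be fully separated. RefSeq also places an overlapping gene at Vegfc (Gm33153), Flt1 (Gm35383), Kdr (Gm32727) and Angpt1 (Gm41313). Those overlapping genes have no row in the deposited count table, and the same limit holds for the axis genes they overlap.

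Angpt1, the activating ligand (chromosome 15, 42424667 to 42676977), was called with the least margin. It stood at 16.7 and 12.1 CPM in shNT and at 9.43 and 11.5 CPM in shGrhl3. The lower shNT library and the higher shGrhl3 library lay close together. The log2 fold change was -0.47 (SE 0.18, adjusted p = 0.0411). The call was lost with DESeq2 (adjusted p = 0.131), when libraries were scaled by size alone (0.0509), with a replicate block (0.0508), without shNT replicate 1 (log2 fold change -0.22) and without shGrhl3 replicate 1 (-0.34).

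Tek encodes the receptor of the Angpt1 and Angpt2 products (chromosome 4, 94739086 to 94874976). It stood at 12.1 and 10.6 CPM in shNT and at 8.43 and 6.91 CPM in shGrhl3. Both shGrhl3 libraries lay below both shNT libraries. Tek had a log2 fold change of -0.56 (SE 0.18, adjusted p = 0.0206), a level 1.48-fold lower (95% interval 1.13 to 1.93). The call was lost with DESeq2 (adjusted p = 0.0755), without shNT replicate 1 (log2 fold change -0.46) and without shGrhl3 replicate 2 (-0.41). The ratio of Angpt1 to Angpt2 counts within a library was 1.40 and 1.03 in shNT and 1.51 and 1.36 in shGrhl3, which overlapped.

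**Figure D3:**
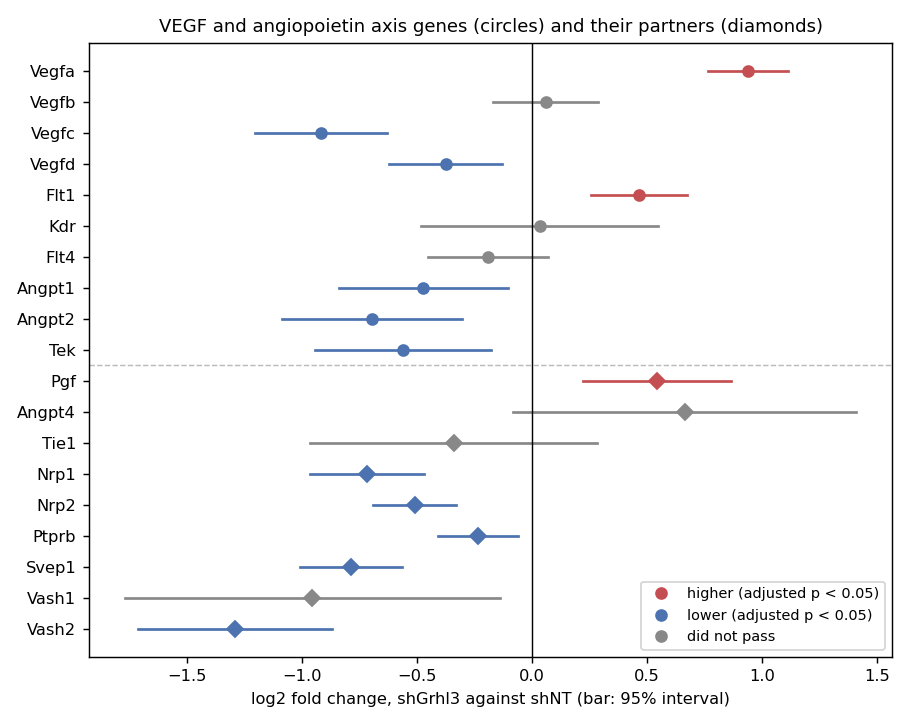
Log2 fold change of shGrhl3 against shNT with its 95% interval for the 10 axis genes (circles) and the 9 tested partner genes (diamonds). Red marks genes called higher, blue genes called lower and grey genes that did not pass. Vegfa and Flt1 lie above 0 with Pgf, and Vegfc and the 3 axis genes of the angiopoietin branch lie below 0 with Nrp1 and Nrp2. Angpt4 lies above 0 but did not pass.

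Co-receptors and other partners of the axis were read from a list of 11 genes found in the table. Among the 9 tested there were 1 riser, 5 fallers and 3 without a call, with a median log2 fold change of -0.51 against -0.01 over all genes tested. The shares to set beside the counts of this and each later list are 17.1% of all genes called higher and 17.9% lower. The co-receptor Nrp1, which presents VEGF-A to the Kdr receptor, stood at 53.4 and 44.4 CPM in shNT and at 27.2 and 32.4 CPM in shGrhl3 (log2 fold change -0.72, SE 0.12, adjusted p = 5.38e-05). Nrp2, which binds VEGF-C, stood at 117 and 121 CPM in shNT and at 84.4 and 82.7 CPM in shGrhl3 (log2 fold change -0.51, SE 0.09, adjusted p = 7.75e-05). For both neuropilins the groups did not overlap.

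Pgf, which encodes placental growth factor, a second ligand of the Flt1 receptor, was the riser of the list. It stood at 10.3 and 11.3 CPM in shNT and at 16.3 and 15.1 CPM in shGrhl3 (log2 fold change 0.54, SE 0.15, adjusted p = 0.00832). Its call was lost without shNT replicate 1 (0.47) and without shGrhl3 replicate 1 (0.49). Ptprb, the phosphatase that restrains Tek signalling, stood at 249 and 232 CPM in shNT and at 194 and 215 CPM in shGrhl3 (log2 fold change -0.24, adjusted p = 0.0336). The Ptprb call was lost with DESeq2, with size-only scaling, with the replicate block, and without shNT replicate 1 (-0.19), shNT replicate 2 (-0.28) or shGrhl3 replicate 1 (-0.16). Tie1, the orphan relative of Tek, was near 2.57 to 4.76 CPM and did not pass (log2 fold change -0.34, adjusted p = 0.417). Tie1 is also among the endothelial markers given later. The other called genes were Svep1, a matrix protein of lymphatic growth (log2 fold change -0.79), and Vash2, a vasohibin (-1.29), both lower.

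Vegfa is a textbook target of the hypoxia-inducible factors, so the genes of oxygen sensing and other known targets of these factors are given beside it. Of 9 tested genes of oxygen sensing, 2 rose, 5 fell and 2 were not called, with a median log2 fold change of -0.30. Hif1a, the oxygen-regulated subunit, named although it did not pass, stood at 493 and 450.2 CPM in shNT and at 519 and 556 CPM in shGrhl3 (log2 fold change 0.19, adjusted p = 0.0742). Hif1a was called when libraries were scaled by size alone (adjusted p = 0.0477) and without shGrhl3 replicate 1 (log2 fold change 0.24). Epas1, the related subunit prominent in endothelium, fell (-0.66, adjusted p = 1.54e-05), as did the partner genes Arnt (-0.46) and Arnt2 (-0.30). Hif1an, whose enzyme blocks the activity of these factors, fell from 66.5 and 66.0 CPM to 29.1 and 28.0 CPM (-1.21, adjusted p = 4.27e-09). Of the prolyl hydroxylases that mark the factors for decay, Egln3 fell (-0.56) and Egln1 rose (0.23), and Vhl, which recognises the mark, rose (0.48).

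The Egln1 call was lost with no filter, DESeq2 and the replicate block, and without shNT replicate 1 (0.23), shNT replicate 2 (0.23) or shGrhl3 replicate 1 (0.18). The Arnt2 call was lost with DESeq2, library size only and the replicate block, and without shNT replicate 2 (-0.23), shGrhl3 replicate 1 (-0.28) or shGrhl3 replicate 2 (-0.30).

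Among 19 tested hypoxia targets, 10 rose, 4 fell and 5 did not pass, with a median log2 fold change of 0.30. Over all genes tested, 17.1% were called higher and 17.9% lower. The glucose transporter gene Slc2a1 rose from 91.6 and 96.0 CPM to 230 and 260 CPM (1.39, adjusted p = 5.57e-11). The hexokinase gene Hk2 (0.78) and P4ha1, a collagen prolyl hydroxylase subunit (0.67), rose as well. The other risers were Pdk1 (1.05), Pgk1 (0.61), Ldha (0.57), Ero1a (0.49), Higd1a (0.45), Eno1 (0.44) and Aldoa (0.30). Their calls were not followed gene by gene over the other settings. The fallers were Ndrg1, a stress-response gene (-0.85), Pfkfb3, a regulator of glycolysis (-0.69), Adm, the vasodilator adrenomedullin (-0.42), and Pgm1, a phosphoglucomutase (-0.29). The Adm call was lost without shNT replicate 2 (-0.25). The Pgm1 call was lost with DESeq2, library size only and the replicate block, and without shNT replicate 1 (-0.27), shNT replicate 2 (-0.30) or shGrhl3 replicate 2 (-0.16). The part of the hypoxia-inducible factors in these changes was not tested.

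Of 20 tested genes that carry the signal of VEGF receptors, 3 rose, 5 fell and 12 did not pass, with a median log2 fold change of -0.04. Mapkapk2, a kinase of the p38 branch, rose from 97.4 and 109 CPM to 233 and 223 CPM (1.15, adjusted p = 6.74e-10). The adaptor genes Shb (0.55) and Sh2d2a (1.64, at most 1.66 CPM in every library) also rose. Shc1 (-0.63), Nck1 (-0.27), Src (-0.36), Prkca (-0.48) and Cdc42 (-0.41) fell. Without shNT replicate 2, where 24.7% of all genes were called against 35.0%, the count of 8 became 5, with Nck1 (-0.28), Src (-0.30) and Sh2d2a (1.95) lost. The Nck1 and Sh2d2a calls were also lost with DESeq2 and without each of the other libraries, at -0.31 to -0.22 for Nck1 and 1.36 to 1.67 for Sh2d2a, and that of Nck1 with library size only, no filter, the replicate block and without the rRNA-related rows.

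Of 9 tested genes that VEGF induces in endothelial cells, 2 rose and 7 did not pass, a share of risers near the 17.1% of all genes. Kdr, also an axis gene, was among the 7. Dusp5, a phosphatase of the ERK kinases, stood at 13.8 and 12.8 CPM in shNT and at 36.2 and 33.2 CPM in shGrhl3 (1.38, adjusted p = 1.46e-08). Rcan1, a calcineurin regulator, rose by 0.44 on the log2 scale (adjusted p = 0.00257). Both genes also respond to many other signals. Of 4 tested angiopoietin-like genes, whose products do not bind Tek, 1 rose: Angptl4, an inhibitor of lipoprotein lipase, at 4.23 and 6.36 CPM in shNT and 8.98 and 8.35 CPM in shGrhl3 (0.72, adjusted p = 0.0141). Its call was lost without shNT replicate 1 (0.44).

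The cell types that could carry these transcripts were read from marker lists. In bulk libraries, fewer cells of a type and less RNA per cell cannot be told apart. Of 18 endothelial markers, all tested, 2 fell (Ecscr, -0.61, and Cldn5, -1.93), 0 rose and 16 did not pass, with a median log2 fold change of -0.44. Their summed level was 93.8 and 93.4 CPM in shNT and 73.2 and 63.7 CPM in shGrhl3, a sum that was not tested. The largest part came from Ecscr, at 26.3 and 30.7 CPM in shNT and 20.3 and 16.9 CPM in shGrhl3. None of the 18 was at 0 in all libraries, and 3 stayed under 1 CPM in every library (Robo4, Sox17 and Sox7). The log2 fold changes of all 18 were negative, from -1.93 for Cldn5 to -0.08 for Cdh5. Cdh5, the least changed of the 18, stood at 10.1 and 10.1 CPM in shNT and 9.03 and 10.1 CPM in shGrhl3. The Cldn5 call was lost with DESeq2 and without shNT replicate 2 (-1.13) or shGrhl3 replicate 1 (-1.06). Of 5 lymphatic markers, Pdpn, also a fibroblast gene, rose (0.65) and 4 did not pass, with a median log2 fold change of -0.31. The 4 all had negative values: Prox1 (-0.08), Lyve1 (-0.65), Mmrn1 (-0.84) and Reln (-0.31). The summed level was 50.7 and 64.1 CPM in shNT and 78.5 and 79.3 CPM in shGrhl3. Most of it came from Pdpn, at 35.5 and 49.9 CPM in shNT and 67.2 and 66.2 CPM in shGrhl3.

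Leukocyte and macrophage markers, which mark cells that can express Flt1 and Vegfc, fell more. Of 11 tested, 10 fell (lowest p-values: Ctss, Cd68, Mpeg1 and Ptprc) and 1 rose (Csf1r, 1.30), with a median log2 fold change of -2.63. Their summed level was 665 and 914 CPM in shNT and 153 and 122 CPM in shGrhl3, most of it from Lyz2. C1qa, C1qb, C1qc and Aif1 were too low to test. Among the axis genes, Flt1 and Vegfa rose while this list fell, and Vegfc, Vegfd, Angpt1, Angpt2 and Tek fell. Of 7 tested pericyte markers, 2 rose (Cspg4, 0.84, and Notch3, 0.43) and 1 fell (Pdgfrb, -0.37), and their summed level was 630.0 and 684 CPM against 597 and 649 CPM. The Notch3 call was lost with limma-voom and without shGrhl3 replicate 2 (0.17), and the Pdgfrb call without shNT replicate 2 (-0.27). Of the 10 cardiomyocyte markers, Myh6, Tnni3, Actc1 and Mybpc3 rose and Nppa fell, and of the 10 fibroblast markers Col1a1 rose and Pdgfra, Tcf21, Dcn, Ddr2 and Thy1 fell. The Nppa call was lost with DESeq2 and without shNT replicate 1 (-0.42) or shGrhl3 replicate 2 (-0.49), and the Thy1 call without shNT replicate 2 (-0.28). The part of these cell types in the changes of the axis genes was not tested.

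**Figure D4:**
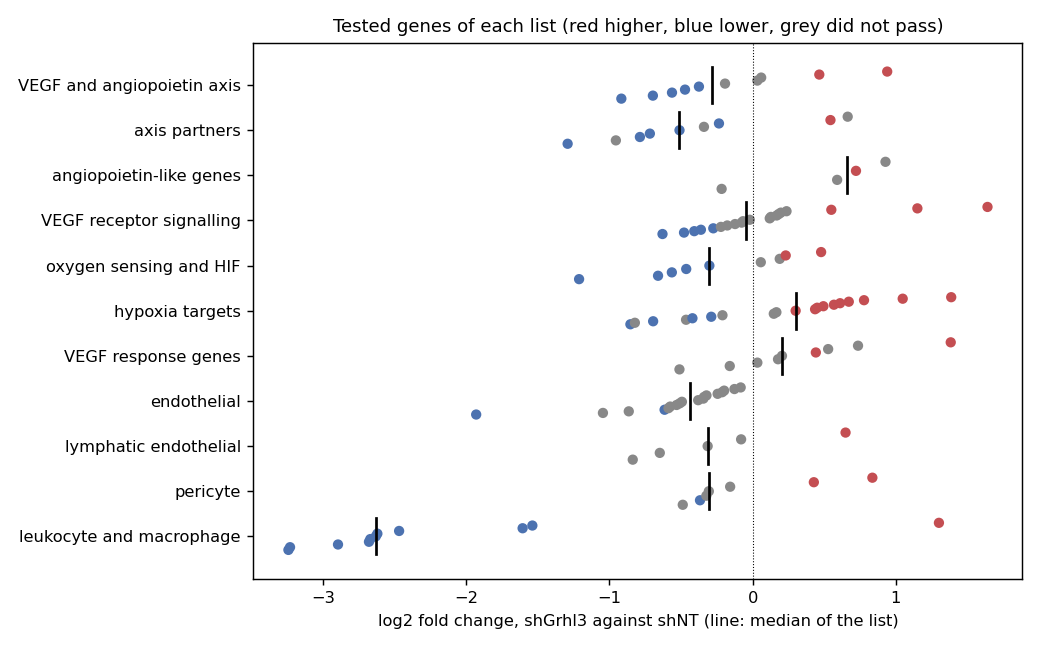
Log2 fold change of every tested gene of the axis and of each list (points; red called higher, blue called lower, grey did not pass), with the list's median as a line. The endothelial median lies at -0.44 and the leukocyte median at -2.63, the hypoxia targets at 0.30, and the axis genes spread from -0.92 to 0.94.

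**Figure D5:**
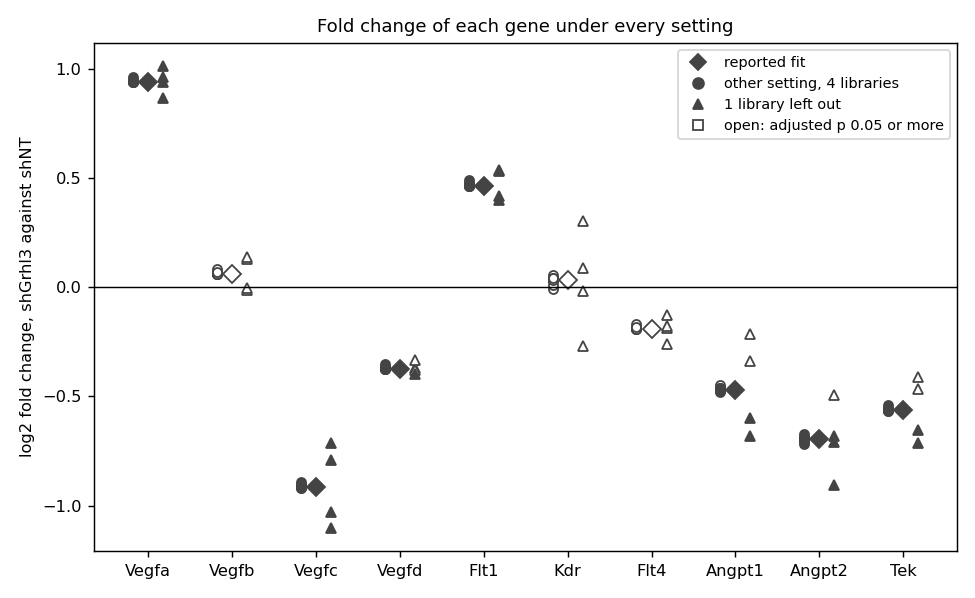
Log2 fold change of each axis gene in the reported fit (diamond), in the other settings with 4 libraries (circles) and with 1 library left out (triangles); open symbols have an adjusted p of 0.05 or more. Vegfa, Vegfc and Flt1 are filled throughout, and Angpt1, Angpt2, Tek and Vegfd have open symbols in some settings.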

How the data were processed

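RNA-seq counts were read for 4 libraries, 2 shNT and 2 shGrhl3. The authors deposited 1 table of raw counts per gene, whole numbers with no normalization found. The submitters' processing notes list, without roles, the genome mm10 and the tools ChIPseeker, MACS2, Bowtie2 (2.2.6), HISAT2 (2.0.1) and cutadapt (1.9.1). The counting program, annotation, strand setting and treatment of multi-mapping reads are unknown: not given in the sources used here. Rows that name no gene (1438 of 55359; 0.00432% to 0.00872% of counts) were left out.

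Genes were filtered with filterByExpr (minimum count 10), scaled by TMM and tested with edgeR 4.0.16 (R 4.3.3; quasi-likelihood, robust, two-sided, no covariate). Adjusted p-values (Benjamini-Hochberg) cover all 15324 genes tested, with a threshold of 0.05. Fold changes are shGrhl3 against shNT, and the SE and interval come from the F statistic. At this depth 10 counts are 0.499 to 0.630 CPM. The chi-square per degree of freedom was 14.1 and 8.66 within the shNT and shGrhl3 pairs, above sampling noise, so no library was a second deposit. Alternatives used limma 3.58.1 and DESeq2 1.42.0. The fit was tested on simulated data.

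The axis genes and lists were chosen with earlier results of these data known. Named from each list were the up to 4 lowest p-values past the threshold, every gene of a call count of 5 or fewer, and direct partners. Hif1a, Mcph1, Pln and the low endothelial and leukocyte markers were named after their values were seen. The same holds for Angpt4, Cdh5, Tnnt2, the lymphatic markers without a call and the hypoxia risers past the lowest p-values. Gene positions are RefSeq, GRCm38.p6. No transcript lengths were used, so levels are not compared between genes.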

Additional observations from a re-analysis of the deposited data

How the results depend on the processing

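Vegfa, Vegfc and Flt1 kept their direction and their call, and Flt4 its direction and its miss, in all 14 alternatives, of which the newer edgeR fit was added after the data were seen. With DESeq2 the axis count went from 7 to 4 and the endothelial count from 2 to 1, with Vegfd (-0.37), Tek (-0.56) and Angpt1 (-0.46) lost. Angpt1 was also lost with library size only (-0.45) and with the replicate block (-0.46), and Kdr turned to -0.0066 with limma-voom, without a call. Leaving out each library in turn gave 4 to 6 axis genes, 1 to 2 endothelial and 5 to 9 receptor signalling genes, in fits that called 24.3% to 31.5% of all genes against 35.0%. The log2 fold changes then ran from -0.68 to -0.22 for Angpt1, -0.91 to -0.49 for Angpt2, -0.71 to -0.41 for Tek, -0.40 to -0.33 for Vegfd, -0.27 to 0.30 for Kdr and -0.011 to 0.14 for Vegfb. Fewer samples entered those fits; otherwise the cause was not tested. The labels name no pairing of same-numbered replicates. The correlation of their deviations was -0.06, a single value from so few libraries that it cannot settle whether a pairing exists. The replicate block gave 4889 called genes against 5368. Low counts leave wide intervals for Kdr and Grhl3, as for other low genes of the lists.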
